A study of Homo sapiens with 15 samples.

Results

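RNA of MCF10A cells grown with 0.12 mM glutamine was compared with RNA of the same line grown in full medium. MCF10A is a human breast epithelial line that grows without forming tumours, and all cells are labelled as wild type. The limited cells were given glutamine-free DMEM/F12 to which glutamine was added back at 0.12 mM, and the control cells had the 2.5 mM of normal DMEM/F12. The maintenance medium of the line held a mammary epithelial growth supplement kit, cholera toxin, penicillin and streptomycin. How long the cells were kept at 0.12 mM is not given in the sources used here. The comparison used 6 of the 15 libraries of the series, 3 per group, chosen by their labels alone. The other 9 libraries, at 0.04, 0.20 and 0.28 mM, entered the same fit, and 13828 of 62754 genes were tested. The replicates are described as biological. What sets them apart (a day, a passage or a dish) is not stated, so p-values measure the spread among these libraries.

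Glutamine is the most abundant free amino acid of plasma and culture medium, and it gives cells nitrogen as well as carbon. Its amide nitrogen goes into purines, pyrimidines, asparagine and hexosamines, while glutamate made from it is the source of α-ketoglutarate, proline and glutathione. Cells sense amino acid shortage mainly through the kinase GCN2, which acts on eIF2α and the transcription factor ATF4, and through mTORC1, which sets ribosome production and growth.

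The libraries carried the profile of the labelled cells. The keratins, integrins and other genes of the basal mammary list summed to between 20569 and 27073 CPM in full medium and between 19124 and 26288 CPM at 0.12 mM. The marker sums here and below are CPM scaled by the total gene counts of each library alone, without TMM. All other CPM are counts scaled to library size by TMM, which sets the bulk of genes equal between libraries. CDKN2A and CDKN2B, which this line has lost, had 0 counts in all 6 libraries. Gene counts were 13199140, 8666765 and 5148795 in replicates 1 to 3 at 0.12 mM and 11442044, 9183710 and 7451107 in full medium. Mitochondrial ribosomal RNA made up 1.62% of the counts of 0.12 mM replicate 3 and at most 0.0440% in the other 5. Deviations from the group means went together in same-numbered libraries, so the number was kept as a block, and the 3 same-numbered libraries of the groups are called pairs.

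At 0.12 mM, 610 genes rose (4.41% of those tested) and 539 fell (3.9%), together 8.31%, at an adjusted p under 0.05 in edgeR's quasi-likelihood test. A gene is said below to rise or fall only where it passed this test, changes are log2 fold changes of 0.12 mM minus full medium, and errors are 1 standard error (SE). The counts of gene lists below are to be read beside these shares of 4.41% and 3.9%. Most changes were small. Of the 1149 genes, 84.4% changed by less than 1.5-fold, the median size was 0.361 on the log2 scale, and 48 rose and 5 fell by at least 2-fold. All 3 pairs went the same way for 588 of the 610 and 527 of the 539. The 2 groups did not overlap for 297 of the genes that rose and 311 of those that fell. Among all tested genes, 764 (5.53%) were higher and 921 (6.66%) lower without overlap. The calls come from these same libraries, so the agreement of pairs and groups is partly built in and lends the calls no support. The changes were smaller in pair 1, where the median of the genes that rose was 0.30, than in pairs 2 and 3, with 0.46 and 0.42. The genes that fell had medians of -0.25, -0.39 and -0.40 in the same pairs.

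The calls rest on the pairing, on the other 9 libraries in the fit, on depth and on single libraries. Without the block edgeR passed 0 genes, with 1112 (8.04%) at an unadjusted p under 0.05. With the block, 272 genes passed in a fit of the 2 groups alone, and 325 with all libraries thinned to the counts of the shallowest. In the full fit, 550 passed when 0.12 mM replicate 2 was left out, 744 without full medium replicate 2 and 690 without full medium replicate 3. A group of 304 genes passed in each of the 6 fits that leave out 1 of the 6 libraries, 173 of them up and 131 down.

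**Figure D1:**
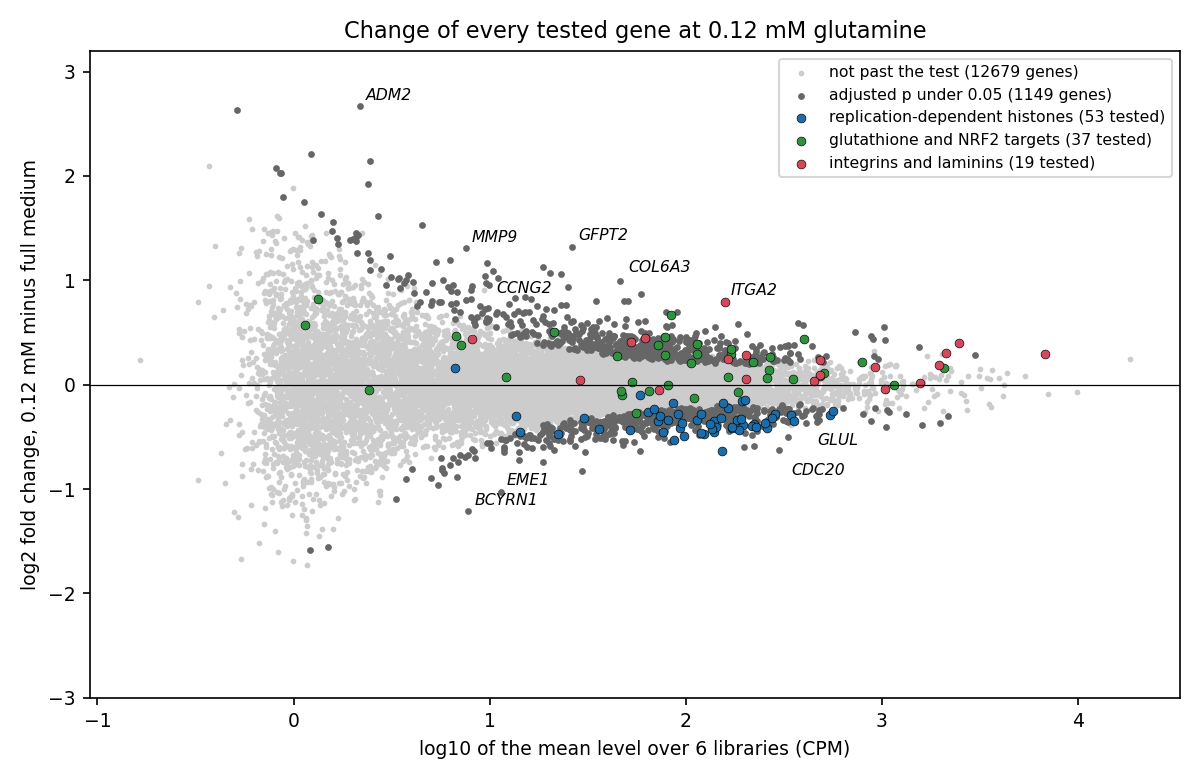
Change of each of the 13828 tested genes (vertical, log2 fold change, 0.12 mM minus full medium) against its mean level over the 6 libraries (horizontal, log10 CPM). Dark points are the 1149 genes past the test, and colours mark 3 gene lists: of the histones 39 of 53 fell, and of the integrins and laminins 9 of 19 rose.

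The spike-ins give another view of the direction. ERCC RNAs are synthetic transcripts added to the RNA before library preparation. Gene counts per ERCC count were lower at 0.12 mM in each pair, at 66.7 against 76.9, 71.7 against 72.5 and 74.8 against 94.0. Scaled to the ERCC counts, the median of all genes moved from 0.00 to -0.18, and 76 genes rose (0.55%) while 1130 fell (8.17%). All 539 genes that fell with TMM also fell with ERCC scaling, and 73 of the 610 that rose with TMM also rose with ERCC scaling. Rises given below are therefore rises relative to the bulk of genes. The ratio also varied among the controls, from 72.5 to 94.0. How the ERCC amount was set, by cells or by RNA mass, is not given here, so the ratio is not read as RNA per cell. In bulk RNA, fewer cells of a kind and less RNA per cell cannot be told apart.

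Genes that use or move glutamine changed in both directions. GFPT2 (chromosome 5, 180300698 to 180353336, GRCh38.p14), whose enzyme spends glutamine in the first step of hexosamine synthesis, had 14.9, 14.2 and 14.7 CPM in full medium and 26.6, 41.7 and 45.3 CPM at 0.12 mM, in replicates 1 to 3. All 3 limited libraries stood above all 3 controls, whose values were nearly equal. It rose by 1.32 (SE 0.136, adjusted p = 8.07e-07), the largest rise among genes of at least 5 CPM that the naming rule allows, and by 1.15 with ERCC scaling (adjusted p = 1.04e-06). Its paralog GFPT1, which catalyses the same step, had 73.9, 79.9 and 79.4 CPM in full medium and 88.8, 92.4 and 81.3 CPM at 0.12 mM. The groups did not overlap, but the change of 0.17 (SE 0.0821) did not pass (adjusted p = 0.221).

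GLUL (chromosome 1, 182378098 to 182391790), glutamine synthetase, makes glutamine from glutamate and ammonia. It had 421, 329.5 and 417 CPM in full medium and 302, 272 and 249 CPM at 0.12 mM. The lowest control lay above the highest limited library. The change was -0.50 (SE 0.0713, adjusted p = 5.79e-05), and -0.68 with ERCC scaling.

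Other enzymes of the list changed in both directions. GLUD1, the mitochondrial glutamate dehydrogenase, had 177.5, 244 and 229 CPM in full medium and 211, 287 and 285 CPM at 0.12 mM. It was higher in each pair although the groups overlapped, and it rose by 0.27 (SE 0.0630, adjusted p = 0.00644), a change of 0.09 with ERCC scaling. GCLC, the catalytic subunit that joins glutamate to cysteine for glutathione, had 50.5, 71.0 and 65.9 CPM in full medium and 60.9, 85.9 and 100.4 CPM at 0.12 mM. Each pair was higher, and GCLC rose by 0.38 (SE 0.0862, adjusted p = 0.00520), but by 0.27 and not past the test without full medium replicate 3 (adjusted p = 0.0686).

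GOT1, GOT2 and GPT2, which move the amino group of glutamate, were not past the test, with changes of -0.22, -0.08 and 0.11 and adjusted p of 0.129, 0.461 and 0.509. OAT, ornithine aminotransferase, rose by 0.25 (SE 0.0677, adjusted p = 0.0179), but not without 0.12 mM replicate 1 or 3 or full medium replicate 2. ALDH18A1, which turns glutamate toward proline, fell by 0.23 (SE 0.0752, adjusted p = 0.0479), but not without any single 0.12 mM replicate or without full medium replicate 3. Both were chosen after their values were seen. Of the 34 tested genes of the list of glutamine and glutamate enzymes (37 listed), 5 rose (14.7%) and 3 fell (8.82%). The shares of all tested genes were 4.41% and 3.9%. The list median was 0.06 and became -0.12 with ERCC scaling. The number that fell was 1 without any single 0.12 mM replicate or without full medium replicate 3, 2 without full medium replicate 2 and 6 without full medium replicate 1.

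Among the carriers, SLC38A2, a sodium-coupled importer of glutamine and small neutral amino acids that cells make more of when amino acids run short, passed the test with each of the 6 libraries left out in turn. It had 272, 375 and 304 CPM in full medium and 374, 617 and 436 CPM at 0.12 mM. Replicate 2 was the highest in both groups, and each pair was higher at 0.12 mM. SLC38A2 (chromosome 12, 46358188 to 46372773) rose by 0.57 (SE 0.0711, adjusted p = 8.97e-06) and by 0.39 with ERCC scaling (adjusted p = 0.0282). SLC7A2, a carrier of cationic amino acids, had 89.1, 139 and 163 CPM in full medium and 124, 196 and 188 CPM at 0.12 mM, and rose by 0.40 (SE 0.0709, adjusted p = 0.000603), a change of 0.22 with ERCC scaling. The main glutamine importer SLC1A5 changed by 0.05 (adjusted p = 0.706, uncertain with 23.8% exonic overlap with another gene), and SLC38A1 by 0.16 (adjusted p = 0.196). The exchanger subunits SLC7A5 and SLC3A2, which let glutamine out against leucine, changed by 0.08 and -0.02 (adjusted p = 0.604 and 0.881). Of the 29 carriers tested (33 listed), 3 rose (10.3%) and 1 fell (3.45%), against 4.41% and 3.9% of all tested genes. The list median was 0.13 and became -0.05 with ERCC scaling. Without full medium replicate 1, 6 rose.

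**Figure D2:**
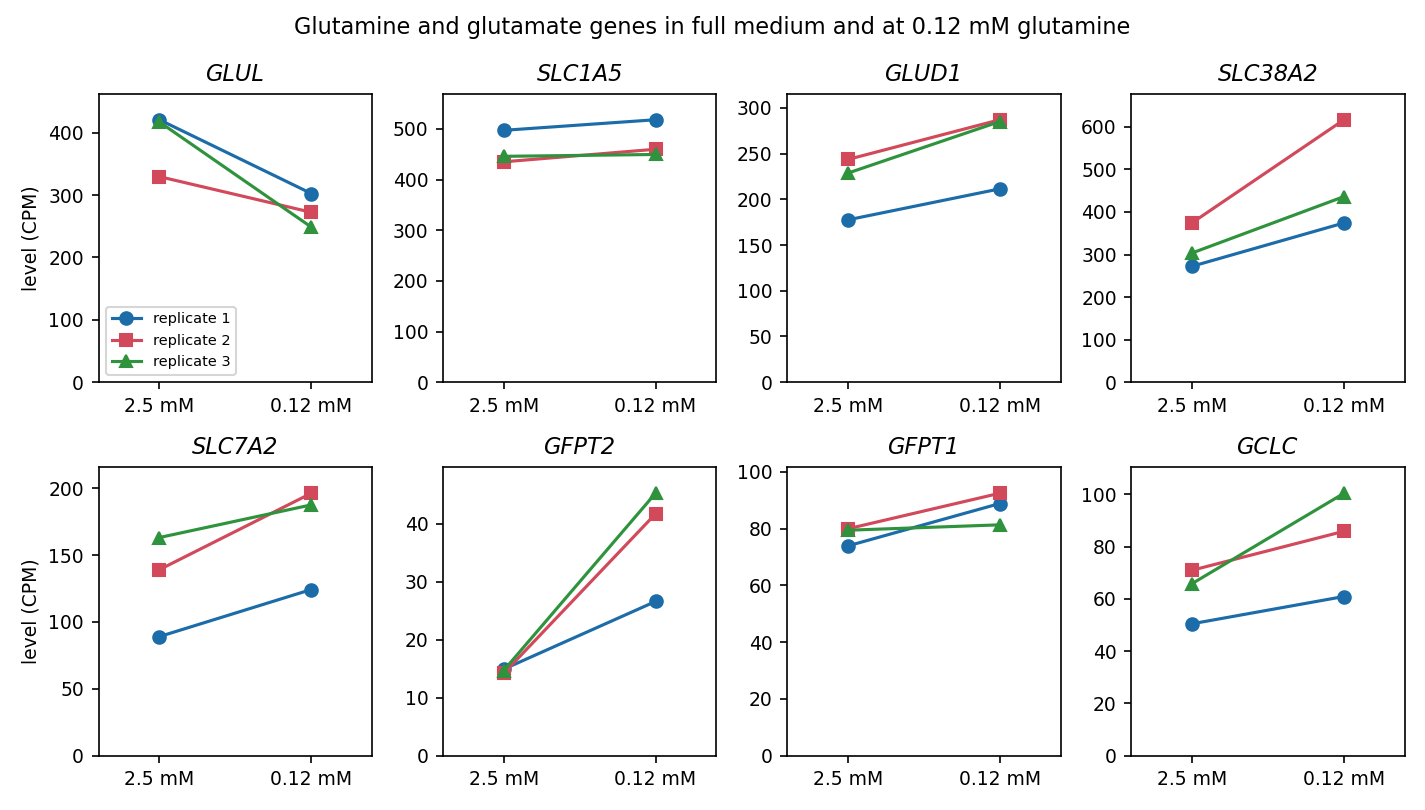
Levels (vertical, CPM, axis from 0) of 8 glutamine and glutamate genes in full medium (2.5 mM) and at 0.12 mM. Lines join libraries of the same replicate number: GLUL is lower in each pair, and the other 7 genes are higher in each pair, with GFPT1 and SLC1A5 not past the test.

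The 12 genes with the largest rise also included enzymes and signals of the cell surface and matrix. MMP9, a gelatinase, had 7.74, 3.33 and 1.80 CPM in full medium and 12.3, 14.8 and 5.31 CPM at 0.12 mM, and rose by 1.31 (SE 0.235, adjusted p = 0.000627). CXCL8, the neutrophil attractant interleukin-8, had 2.49, 4.19 and 4.38 CPM in full medium and 4.20, 9.17 and 13.5 CPM at 0.12 mM, and rose by 1.20 (SE 0.227, adjusted p = 0.00106). For both the highest control lay above the lowest limited library. Every pair was higher at 0.12 mM, which the naming rule requires. COL6A3, a chain of collagen VI, had 40.9, 34.5 and 15.5 CPM in full medium and 51.2, 82.1 and 51.9 CPM at 0.12 mM. Its groups did not overlap, and it rose by 1.00 (SE 0.143, adjusted p = 5.96e-05).

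The other 8 of the 12 had no overlap between groups either. MCF2, a guanine nucleotide exchange factor, rose by 1.17 (SE 0.242), FAM167A by 1.17 (SE 0.220) and SDCBP2, the adaptor syntenin-2, by 1.09 (SE 0.177). SLITRK6, a transmembrane protein known from neurons and the inner ear, rose by 1.07 (SE 0.150) and PNLIPRP3, a relative of pancreatic lipase, by 1.06 (SE 0.119). PTCHD4, a membrane protein with a patched domain, rose by 1.04 (SE 0.191), ARNT2, a dimer partner of the hypoxia-inducible factors, by 1.03 (SE 0.187), and TMEM156 by 1.00 (SE 0.209). All 12 passed with each library left out, and with ERCC scaling their changes ran from 0.83 for TMEM156 to 1.17 for MMP9, all past the test. Pair 1 had the smallest change in 10 of the 12.

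The largest falls were less stable. BCYRN1, a short RNA made by RNA polymerase III from an Alu-derived gene, had 18.5, 8.28 and 5.67 CPM in full medium and 8.0, 2.06 and 4.17 CPM at 0.12 mM. Its change was -1.21 (SE 0.228, adjusted p = 0.000991), with overlapping groups, and its repeats elsewhere in the genome make its counts uncertain. EME1, which forms a DNA junction nuclease with MUS81, had 15.4, 16.7 and 13.3 CPM in full medium and 9.19, 5.16 and 8.53 CPM at 0.12 mM. Every limited library was below every control, and EME1 fell by 1.02 (SE 0.196, adjusted p = 0.00123). CHMP6, a subunit of the membrane-cutting ESCRT-III complex, fell by 0.74 (SE 0.153) and the antisense transcript GASK1B-AS1 by 0.88 (SE 0.196), but 21.5% and 26.6% of their exons overlap other genes, so both are uncertain. These 4 of the 12 passed with each library left out.

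The other 8 lost the call without at least 1 library. CA2, a cytosolic carbonic anhydrase, changed by -0.96 and by -0.77 without 0.12 mM replicate 2 (adjusted p = 0.0839). The imprinted RNA H19 changed by -0.90, and by -0.96, -0.66 and -0.56 without 0.12 mM replicate 1, 0.12 mM replicate 3 or full medium replicate 3. Full medium replicate 3 held 12.8 CPM of H19, and the other 5 libraries 2.22 to 4.09 CPM. HCFC1R1 (-0.84), the fucose mutarotase FUOM (-0.82), the RNA exonuclease REXO5 (-0.79) and MMAA (-0.77), a chaperone of vitamin B12 metabolism, did not pass when full medium replicate 2 or 3 was left out. HCFC1R1 was also lost without 0.12 mM replicate 2 or 3, FUOM without 0.12 mM replicate 2, REXO5 without any 0.12 mM replicate, and MMAA without 0.12 mM replicate 1 or 3. ROR1, an orphan receptor kinase (-0.74), did not pass without replicate 1 or 2 of either group. The histone gene H3-7 (-0.72, with 37.4% exonic overlap and so uncertain) was lost without 0.12 mM replicate 2 or full medium replicate 2 or 3. In the fits in which these 7 genes lost the call, H19 to H3-7, the changes ran from -0.96 to -0.47, with adjusted p from 0.0518 to 0.291.

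**Figure D3:**
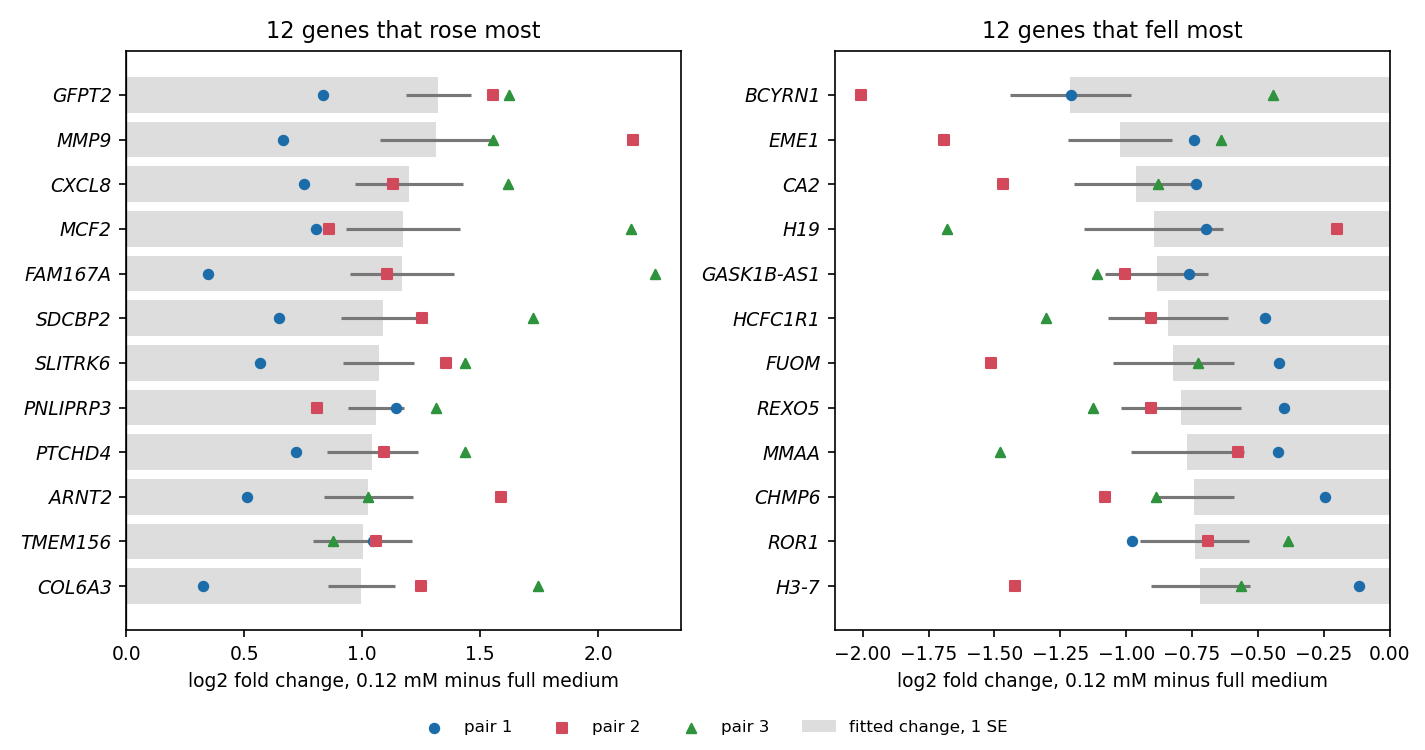
The 12 genes that rose most and the 12 that fell most by the naming rule, with the fitted log2 fold change and 1 SE (grey bar and line) and the change in each same-numbered pair (points). All pairs share the sign of their bar because the naming rule requires it. Pair 1 has the smallest change in 10 of the 12 that rose and 8 of the 12 that fell.

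The replication-dependent histone genes fell together. They encode the histones that package newly copied DNA, are transcribed in S phase, and give transcripts without a poly(A) tail, which libraries depleted of ribosomal RNA keep. Of the 53 members tested (66 listed, 13 below the filter or not in the table), 39 fell (73.6%) and 0 rose, and 43 were lower in all 3 pairs, against 18.6% of all tested genes. The median was -0.35 with TMM and -0.55 with ERCC scaling, and changes ran from -0.63 to 0.16. Near-identical copies can share reads, so single members are uncertain. Without 0.12 mM replicate 2, 18 fell.

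The fall reached each of the histone families, and it was seen in 10 of 11 H2A genes (median -0.41), 14 of 17 H2B genes (-0.40) and 4 of 5 linker histone H1 genes (-0.29). Among the core histones of the tetramer, 6 of 10 H3 genes (-0.33) and 5 of 10 H4 genes (-0.31) fell. H2BC9 had 156, 144 and 131.5 CPM in full medium and 117.5, 102 and 91.5 CPM at 0.12 mM. Its groups did not overlap, and it fell by 0.47 (SE 0.0716, adjusted p = 0.000111). H2BC12 had 283.5, 258 and 200.4 CPM in full medium and 224, 180.5 and 158 CPM at 0.12 mM. It was lower in each pair with overlapping groups, and fell by 0.40 (SE 0.0650, adjusted p = 0.000230). H2BC7 fell by 0.41 (SE 0.0708) and H2BC17 by 0.46 (SE 0.0757). H2AX, a variant histone of DNA damage signalling that is also made outside S phase, belongs to another list. It had 288, 257 and 252 CPM in full medium and 248, 191 and 155 CPM at 0.12 mM. H2AX fell by 0.44 (SE 0.0772, adjusted p = 0.000523). In its list of histone variants and histone mRNA processing genes, H2AX was the only 1 of 22 tested that fell (4.55%), and 0 rose. The median of that list was -0.08 (-0.26 with ERCC scaling).

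Many H2A and H2B promoters hold an octamer, the letters bound by OCT1, and 4 of those named here are printed to show it beside an H4 promoter without it. The octamer ATTTGCAT was searched on both strands from 250 bases before the start, in the RefSeq promoter windows that were matched to 10237 tested genes by symbol, and counted whether or not it overlapped another motif. It stood in 13 of 17 H2B and 8 of 10 H2A promoters, in 0 of 8 H3, 0 of 8 H4 and 0 of 5 H1 promoters, and in 1.82% of all 10237. The sequences are RefSeq's, on GRCh38.p14, 5′ to 3′ along the gene, with the octamer or its reverse complement in capitals. H2BC9 lies at chr6:26251535-26251602 on the plus strand, H2BC12 at chr6:27146867-27146934 on the minus strand, H2BC7 at chr6:26199375-26199442 on the plus strand and H2BC17 at chr6:27893246-27893313 on the plus strand. H4C4, at chr6:26189133-26189200 on the minus strand, was chosen after its values were seen. It fell by 0.37 (SE 0.0858), but did not pass without 0.12 mM replicate 2.
H2BC9: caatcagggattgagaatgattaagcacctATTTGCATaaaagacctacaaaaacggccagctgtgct
H2BC12: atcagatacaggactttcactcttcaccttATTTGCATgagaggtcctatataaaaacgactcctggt
H2BC7: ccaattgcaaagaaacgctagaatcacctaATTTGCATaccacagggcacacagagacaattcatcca
H2BC17: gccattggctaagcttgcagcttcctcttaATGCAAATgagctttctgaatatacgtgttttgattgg
H4C4: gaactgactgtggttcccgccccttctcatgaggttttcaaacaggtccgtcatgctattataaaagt
The letters describe these windows. Families with the octamer and families without it both held genes that fell, and no binding was measured.

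The genes of DNA replication fell with the histones. Of 55 S phase genes tested, 20 fell (36.4%) and 0 rose, with a median of -0.20 (-0.39 with ERCC scaling). LIG1, which seals Okazaki fragments, had 88.6, 81.8 and 82.6 CPM in full medium and 67.7, 54.8 and 56.5 CPM at 0.12 mM. The groups were well apart, and LIG1 fell by 0.50 (SE 0.0767, adjusted p = 0.000118). GINS2, of the helicase that opens the fork, had 52.3, 60.4 and 61.7 CPM in full medium and 45.8, 40.5 and 33.7 CPM at 0.12 mM, and fell by 0.54 (SE 0.110, adjusted p = 0.00204). The helicase subunits MCM7 (-0.39, SE 0.0757) and MCM2 (-0.46, SE 0.0924, 23.6% exonic overlap and so uncertain) fell as well. In all, 3 of the 6 MCM2 to MCM7 genes and 3 of the 4 GINS genes fell. The 20 became 12, 12 and 13 without 0.12 mM replicate 1, 2 or 3, and 7 without full medium replicate 3. It became 12 without the libraries over 1% mitochondrial ribosomal RNA, which are 0.12 mM replicate 3 and 1 library at 0.04 mM.

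Mitotic genes showed fewer calls. Of 79 tested, 17 fell (21.5%) and 0 rose, with a median of -0.14 (-0.32 with ERCC scaling). CDC20, the activator of the anaphase-promoting complex, had 373.5, 372.5 and 335 CPM in full medium and 309, 226 and 180.4 CPM at 0.12 mM. The groups did not overlap, pair 1 changed least, and CDC20 fell by 0.63 (SE 0.0867, adjusted p = 4.03e-05). AURKB, the kinase of the chromosomal passenger complex, had 65.0, 64.8 and 63.4 CPM in full medium and 51.2, 46.9 and 33.5 CPM at 0.12 mM, and fell by 0.55 (SE 0.0984, adjusted p = 0.000670). TACC3, a spindle protein, fell by 0.44 (SE 0.0793) and MYBL2, a transcription factor of the G2 programme, by 0.41 (SE 0.0701). The proliferation marker MKI67 changed by -0.26 and did not pass (SE 0.0836, adjusted p = 0.0524). Without full medium replicate 3 the number that fell was 7 and the median -0.04, and without 0.12 mM replicate 3 it was 11. It was 10 without the libraries over 1% mitochondrial ribosomal RNA.

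The promoters of these lists hold the elements they are known for, and 1 example of each is printed. The cell cycle homology region (CHR, TTTGAA or TTCGAA), an element of G2 genes, was in 36 of 66 mitotic promoters, in 6 of the 13 that fell, and in 13.7% of all 10237. E2F letters (TTTGGCGC, TTTCCCGC or TTTCGCGC) were in 17 of 45 S phase promoters, in 6 of the 18 that fell, and in 4.99% of all. Both were searched on both strands, with overlaps with other motifs allowed. The CHR of CDC20 lies in chr1:43358886-43358951 on the plus strand, and the E2F letters of LIG1 in chr19:48170421-48170488 on the minus strand. Capitals mark them.
CDC20: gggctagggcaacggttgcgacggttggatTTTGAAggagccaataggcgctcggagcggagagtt
LIG1: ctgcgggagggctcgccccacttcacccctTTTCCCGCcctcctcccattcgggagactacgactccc
A match is a description of the letters, and no factor was measured.

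Other brakes and drivers of the cycle were mixed. CCNG2, an unusual cyclin that is high in resting cells, had 15.9, 17.5 and 17.9 CPM in full medium and 29.1, 43.1 and 26.2 CPM at 0.12 mM. The groups did not overlap, and CCNG2 rose by 0.93 (SE 0.126, adjusted p = 2.58e-05) and by 0.75 with ERCC scaling. MXD4, a repressor that competes with MYC for MAX, had 44.4, 33.2 and 38.7 CPM in full medium and 61.9, 56.5 and 61.2 CPM at 0.12 mM, and rose by 0.63 (SE 0.0895, adjusted p = 5.96e-05) and by 0.45 with ERCC scaling. MYC itself changed by -0.05, the CDK inhibitor gene CDKN1A by 0.04 and CCND1, cyclin D1, by -0.06, with adjusted p of 0.738, 0.823 and 0.662. Of the 22 G1 cyclin and CDK inhibitor genes 2 rose and 2 fell (9.09% each), and of 10 genes of the MYC network 1 rose (10%). The shares of all tested genes were 4.41% up and 3.9% down.

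Ribosome-making genes fell, while the ribosomal protein genes did not follow them. Of 83 ribosome biogenesis genes, 22 fell (26.5%) and 0 rose, with a median of -0.16 (-0.34 with ERCC scaling). NAT10, which acetylates ribosomal RNA, had 204, 193 and 209 CPM in full medium and 163, 154 and 147 CPM at 0.12 mM. The groups did not overlap, and NAT10 fell by 0.38 (SE 0.0617, adjusted p = 0.000222). NOP56, of the box C/D snoRNA particle, fell by 0.38 (SE 0.0677), MRTO4, an assembly factor of the large subunit, by 0.40 (SE 0.0786), and BOP1, which acts in the processing of large-subunit rRNA, by 0.40 (SE 0.0769). The 22 became 13 and 11 without 0.12 mM replicate 1 or 2, and 35 and 11 without full medium replicate 1 or 3. Of 81 cytosolic ribosomal protein genes 1 rose and 0 fell, with a median of 0.00 (-0.20 with ERCC scaling). The 1 was RPL39 (0.55, SE 0.159), which did not pass without replicate 1 or 3 of either group. Without 0.12 mM replicate 2, however, 11 rose. With 1 library left out the median of the ribosomal protein genes ran from -0.07 to 0.11. It was -0.08 without the libraries over 1% mitochondrial ribosomal RNA.

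Of 74 mitochondrial ribosomal protein genes, 11 fell (14.9%) and 0 rose, with a median of -0.13 (-0.32 with ERCC scaling). MRPL17 had 102, 102 and 80.3 CPM in full medium and 86.4, 67.0 and 67.3 CPM at 0.12 mM, and fell by 0.37 (SE 0.0787, adjusted p = 0.00316). Without 0.12 mM replicate 2 the 11 became 2, and without full medium replicate 2 they became 5. Of 35 import and chaperone genes 7 fell and 0 rose, with a median of -0.15, among them TOMM40, the pore of the outer membrane (-0.36, SE 0.0671), and LONP1, a matrix protease (-0.30, SE 0.0663). Left-out libraries moved this number to between 2 (full medium replicate 3) and 13 (full medium replicate 1), with 3 and 4 without 0.12 mM replicates 2 and 3 and 4 without full medium replicate 2. Of the 77 nuclear genes of the respiratory chain 0 rose and 0 fell, with a median of 0.01 (-0.18 with ERCC scaling). Without 0.12 mM replicate 2, 9 of them rose, and without full medium replicate 2, 3 did.

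Of the 13 mitochondrially encoded mRNAs 2 rose, with a median of 0.12 that became -0.06 with ERCC scaling. MT-CYB, cytochrome b, had 1215, 761 and 561 CPM in full medium and 1434, 1120.5 and 1055 CPM at 0.12 mM, and rose by 0.55 (SE 0.104, adjusted p = 0.00109). Without full medium replicate 1, 7 of the 13 rose, and without replicate 3 of either group, 1 did. Pair 3, which holds the library with most mitochondrial ribosomal RNA, had the largest change of MT-CYB, 0.91, against 0.24 and 0.56 in pairs 1 and 2. The part of that RNA in the change was not tested.

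Among nucleotide synthesis genes 7 of 37 fell (18.9%) and 0 rose, with a median of -0.14 (-0.32 with ERCC scaling). Thymidylate synthase, TYMS (-0.36, 46.6% exonic overlap), and the ribonucleotide reductase subunit RRM2 (-0.34, 20.2% overlap) fell, and both are uncertain. The 7 became 12 without full medium replicate 1 and 3 without full medium replicate 3. Of 47 proteasome genes 7 fell and 2 rose, with a median of -0.10, and left-out libraries moved the 7 to between 1 (0.12 mM replicate 2) and 11 (full medium replicate 1). It was 4 without 0.12 mM replicate 1 or 3 or full medium replicate 2 and 3 without full medium replicate 3. PSMD3, of the regulatory lid, fell by 0.28 (SE 0.0649). Of 26 glycolysis genes 0 rose and 0 fell, with a median of -0.04.

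**Figure D4:**
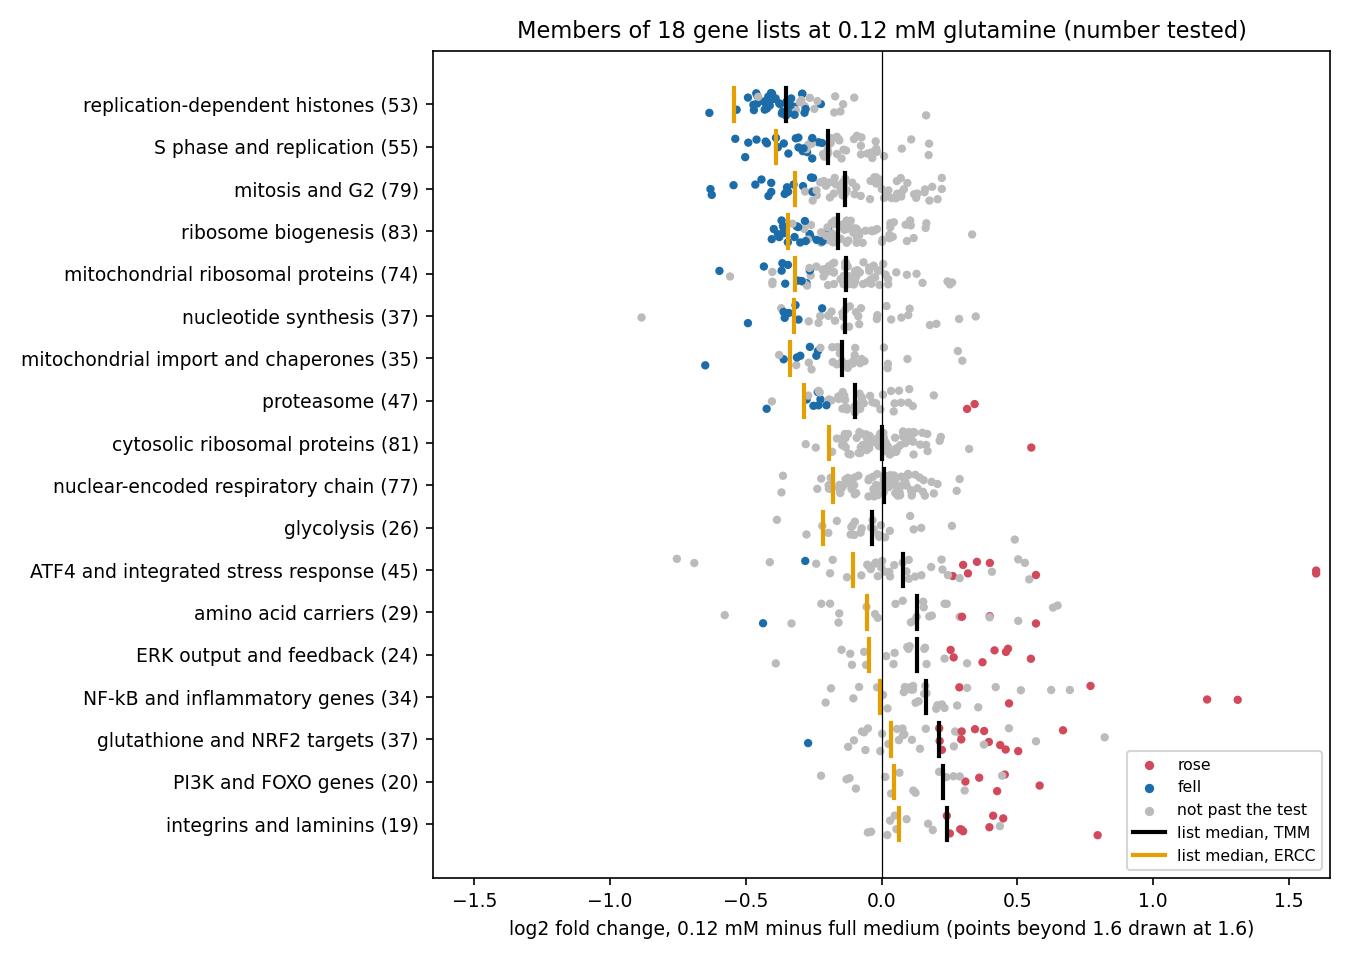
Log2 fold changes (horizontal, 0.12 mM minus full medium) of the tested members of 18 gene lists, each point a gene and each row a list with its number tested. Black lines are list medians with TMM and orange lines with ERCC scaling, which lies to the left in each row. The histone row is the furthest to the left, at -0.35.

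Genes of glutathione and the NRF2 response rose. NRF2 is the transcription factor that drives detoxifying and antioxidant enzymes. Of 37 tested genes (39 listed), 12 rose (32.4%) and 1 fell, with a median of 0.21 that was 0.03 with ERCC scaling, where 1 rose and 1 fell. NQO1, a quinone reductase, had 322, 408 and 295 CPM in full medium and 409.8, 500.5 and 473 CPM at 0.12 mM. All limited values lay above the controls, and NQO1 rose by 0.44 (SE 0.0763, adjusted p = 0.000523). TXNRD1, thioredoxin reductase, had 105, 113 and 79.3 CPM in full medium and 124, 144 and 123 CPM at 0.12 mM, and rose by 0.39 (SE 0.0837, adjusted p = 0.00291) without overlap. AKR1B1, aldose reductase, rose by 0.34 (SE 0.0659). AKR1C1, a reductase of steroids and carbonyls, rose by 0.67 (SE 0.105), but its close paralogs make it uncertain. The 12 became 7 without full medium replicate 3, and 7 without the libraries over 1% mitochondrial ribosomal RNA. The antioxidant response letters TGACNNNGC, searched on both strands with overlaps allowed, were in 7 of the 26 promoters matched and in 2 of the 12 that rose, against 16% of all.

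Only a minority of the ATF4 and integrated stress response list rose, and ATF4 activity was not measured. Of 45 tested genes (48 listed), 8 rose (17.8%) and 1 fell (2.22%), against 4.41% and 3.9% of all tested genes. The list median was 0.08 and became -0.10 with ERCC scaling, where 2 rose and 2 fell. ATF4 itself had 379, 378 and 390 CPM in full medium and 362, 443 and 568 CPM at 0.12 mM. Replicate 1 was slightly lower and replicates 2 and 3 higher, and the change of 0.22 (SE 0.0822) did not pass (adjusted p = 0.0895). XPOT, the tRNA exporter, had 148, 219 and 242 CPM in full medium and 209, 267 and 276 CPM at 0.12 mM, was higher in each pair, and rose by 0.32 (SE 0.0709, adjusted p = 0.00442). ADM2, a secreted peptide of the adrenomedullin family, had 0.829, 0.215 and 0.387 CPM in full medium and 1.11, 2.75 and 7.77 CPM at 0.12 mM. It rose by 2.67 (SE 0.544, adjusted p = 0.00202) without overlap, but by 1.48 and not past the test without full medium replicate 3 (adjusted p = 0.113).

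Classical markers of the ATF4 response were not past the test or unstable. ASNS, asparagine synthetase, had at most 1.89 CPM in any of the 6 libraries, and its change of 0.53 (SE 0.593, adjusted p = 0.657) is also uncertain because 44.6% of its exons overlap another gene. CHAC1 changed by 0.54 (SE 0.588), DDIT3 by -0.75 (SE 0.457, 39.6% overlap and so uncertain), SESN2 by 0.01 (SE 0.108), PSAT1 by 0.03 (SE 0.0848) and SLC7A11 by 0.29 (SE 0.108), with adjusted p from 0.0984 to 0.971. TRIB3, an inhibitory pseudokinase, rose by 0.26 (SE 0.0756, adjusted p = 0.0260), but passed without full medium replicate 1 and with no other of the 6 libraries left out. PHGDH, the first enzyme of serine synthesis, had 54.3, 64.5 and 90.9 CPM in full medium and 56.2, 72.9 and 159.7 CPM at 0.12 mM. The rise was carried by replicate 3: PHGDH rose by 0.35 (SE 0.104, adjusted p = 0.0300), and did not pass when replicate 3 was left out of the 0.12 mM group (0.24) or of the controls (0.17). The 8 genes that rose became 5 without replicate 2 of either group, 3 without full medium replicate 3 and 13 without full medium replicate 1. The ATF4 element letters TGATGNAA, searched on both strands with overlaps allowed, were in 8 of 38 promoters of the list, in 0 of the 8 that rose and in 2.34% of all.

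Amino acid sensing and the enzymes next to glutamate held changes both ways. MLST8, a subunit of both mTOR complexes, fell by 0.39 (SE 0.0864, adjusted p = 0.00438). In the sensing list 4 of 46 genes fell (8.7%, against 3.9% of all tested genes) and 0 rose. The 4 became 2 without 0.12 mM replicate 1 or 2 or full medium replicate 2. Of 18 proline, arginine and polyamine genes, 4 rose and 4 fell, and without 0.12 mM replicate 1, 2 rose. PYCR3, a proline-making reductase, fell by 0.65 (SE 0.132), ASL, argininosuccinate lyase, by 0.52 (SE 0.108), and SRM, spermidine synthase, by 0.40 (SE 0.0667). AZIN1, which protects ornithine decarboxylase from antizyme, had 77.1, 148 and 134 CPM in full medium and 116, 190 and 173 CPM at 0.12 mM, and rose by 0.43 (SE 0.0801, adjusted p = 0.000873), a change of 0.25 with ERCC scaling. Of 24 serine and one-carbon genes 3 rose (1 without 0.12 mM replicate 3, 2 without 0.12 mM replicate 2 or full medium replicate 3) and 4 fell, with MTRR, methionine synthase reductase, down by 0.43 (SE 0.0832).

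Adhesion genes rose. Integrins and laminins anchor breast epithelial cells to the basement membrane. Of 19 tested (21 listed), 9 rose (47.4%) and 0 fell, with a median of 0.24 that was 0.06 with ERCC scaling. With that scaling 1 rose and 0 fell. ITGA2 (chromosome 5, 52989352 to 53094779), the collagen-binding α2 integrin, had 135, 105 and 106 CPM in full medium and 185, 236 and 179.8 CPM at 0.12 mM. The lowest limited library was well above the highest control, and ITGA2 rose by 0.80 (SE 0.0948, adjusted p = 3.69e-06) and by 0.63 with ERCC scaling (adjusted p = 0.000922). The β subunits ITGB5 (0.29), ITGB6 (0.45, 20.6% exonic overlap and so uncertain) and ITGB8 (0.41) rose, and each was lost without full medium replicate 2, with changes of 0.21, 0.38 and 0.31. The 9 became 4 without 0.12 mM replicate 2, 2 without full medium replicate 2 and 4 without full medium replicate 3.

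Matrix and protease genes rose in part. Of 44 tested (49 listed), 9 rose (20.5%) and 0 fell, with a median of 0.11 that became -0.06 with ERCC scaling. With that scaling 4 rose and 2 fell. NT5E, the surface enzyme that makes adenosine, had 319, 347 and 226 CPM in full medium and 393, 534 and 419 CPM at 0.12 mM. The groups did not overlap, and NT5E rose by 0.59 (SE 0.0781, adjusted p = 1.84e-05) and by 0.42 with ERCC scaling. PLAU, the urokinase plasminogen activator, had 216, 131 and 105 CPM in full medium and 249, 217 and 195 CPM at 0.12 mM, was higher in each pair, and rose by 0.58 (SE 0.0844, adjusted p = 6.29e-05), but it is uncertain, with 31.1% exonic overlap. The 9 became 14 and 5 without full medium replicate 1 or 3. Summed fibroblast markers moved with these genes, from 33.6 to 43.3 CPM in full medium and from 47.9 to 56.7 CPM at 0.12 mM, with LUM and THY1 of the 8 at 0 counts in all 6 libraries. COL1A2, COL3A1, PDGFRA and PDGFRB had at most 7 counts in any library, so that the sum is nearly that of COL1A1 and DCN. COL1A1 changed by 0.22 (SE 0.133, adjusted p = 0.331). DCN, decorin, rose by 0.49 (SE 0.122), but not without 0.12 mM replicate 2 or 3 or full medium replicate 3. Summed endothelial markers were 3.76 to 6.04 CPM in full medium and 6.59 to 10.7 CPM at 0.12 mM, with CDH5 at 0 counts, and PECAM1 rose by 0.80 (SE 0.214), but not without replicate 2 of either group. PECAM1 made up most of that sum, with 113 counts in full medium and 180 at 0.12 mM. KDR, the next, had 6 and 14. Immune markers summed to 3.62 to 9.70 CPM and 6.58 to 9.09 CPM, with PTPRC and CD3E at 0 counts. That sum was nearly all CSF1R, with 174 counts in full medium and 209 at 0.12 mM. The other members had at most 4 counts in any library. Luminal markers summed to 491 to 633 CPM and 519 to 569 CPM, with ELF5 at 0 counts. KRT18 (11125 counts in full medium and 10803 at 0.12 mM) and KRT8 (3891 and 3451) made up most of that sum. The part of other cells in these changes was not tested. The summed marker values are CPM without TMM.

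Growth factor signalling genes rose in small numbers. Of 24 genes of ERK output and feedback, 7 rose (29.2%) and 0 fell, with a median of 0.13 that became -0.05 with ERCC scaling. With that scaling 1 rose and 0 fell. PHLDA1 had 135.5, 114 and 94.6 CPM in full medium and 171, 189 and 145 CPM at 0.12 mM, and rose by 0.55 (SE 0.0890, adjusted p = 0.000224) without overlap. DUSP1, a phosphatase of MAP kinases, rose by 0.42 (SE 0.0753), and DUSP6, the ERK phosphatase, by 0.47 (SE 0.0753), though 40.5% of the exons of DUSP6 overlap another gene and it is uncertain. SPRED1, which restrains RAS, rose by 0.37 (SE 0.0832). Without full medium replicate 3, 4 of the 24 rose. AREG, the EGF receptor ligand amphiregulin, had 712, 866 and 651 CPM in full medium and 931, 1138 and 995 CPM at 0.12 mM, and rose by 0.46 (SE 0.0750, adjusted p = 0.000226) without overlap. NRG1, a ligand gene of other receptors of the EGF receptor family, went down by 0.53 (SE 0.126, adjusted p = 0.00677). In the list of the EGF receptor family and its ligands 3 of 13 rose and 1 fell, and 1 rose without any single 0.12 mM replicate or without full medium replicate 2.

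Among the PI3K and FOXO genes, 5 of 20 rose (25%) and 0 fell, with a median of 0.23 that was 0.05 with ERCC scaling, where 0 rose. PIK3CD, a catalytic subunit of PI3K, had 20.3, 14.5 and 13.7 CPM in full medium and 26.1, 26.3 and 20.1 CPM at 0.12 mM, and rose by 0.58 (SE 0.127, adjusted p = 0.00383) with each pair higher. Without 0.12 mM replicate 2, 2 of the 20 rose. Of 34 NF-kB and inflammatory genes tested (45 listed), 5 rose (14.7%), MMP9 and CXCL8 among them, and 0 fell. The median of 0.16 became -0.01 with ERCC scaling, where 2 rose and 0 fell. Left-out libraries moved the 5 to 3, 2 and 3 (0.12 mM replicates 1, 2 and 3) and to 8 and 3 (full medium replicates 1 and 2). MCL1, which restrains apoptosis, had 815, 911 and 934 CPM in full medium and 1080.1, 1246 and 1250.3 CPM at 0.12 mM, and rose by 0.43 (SE 0.0726, adjusted p = 0.000416), as 1 of 4 genes of 27 in the cell death list that did. Without 0.12 mM replicate 2, 1 of the 27 rose, and without full medium replicate 3, 2 did.

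The genes on each side differed in sequence composition. Genes that rose had a median GC content of 44.3% and a longest transcript of 5190 bases in the median, genes that fell 55.4% and 2903 bases, and genes not past the test 47.9% and 3454 bases. With an offset for GC content and length in the blocked fit, 574 rose and 481 fell, and 848 of the 1149 were among them. Other effects of composition were not tested.

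Direct tests showed little difference between 0.12 mM and its neighbours. Against 0.04 mM, 1 gene passed (0.00723%, 580 or 4.19% at an unadjusted p under 0.05), against 0.20 mM 2 genes (0.0145%, 886 or 6.41% unadjusted), and against 0.28 mM edgeR and DESeq2 each passed 0 (567 or 4.1% unadjusted in edgeR). The calls were 2 genes without a symbol, neither of which passed against full medium, and which are given with their values in the closing section. None of the genes named in the text passed any of these 3 tests. GFPT2 stood at 28.6, 44.8 and 47.2 CPM at 0.04 mM, 26.3, 27.98 and 39.3 CPM at 0.20 mM and 25.1, 26.8 and 40.6 CPM at 0.28 mM. The values at 0.12 mM lie within the range of these libraries, and all 12 are above the controls. A p that misses the threshold does not show that concentrations act alike: for GFPT2 the difference from 0.28 mM was 0.28 (SE 0.124, adjusted p = 0.998).

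For the genes called against full medium, the median change from 0.04 to 0.12 mM was -0.03 in those that rose and 0.01 in those that fell. From 0.20 to 0.12 mM it was 0.03 and 0.002. From 0.28 to 0.12 mM it was 0.12 and -0.11, in the direction of the change against full medium. The libraries at 0.12 mM enter both sides of that description, so it has no test. For the histones the list median of 0.12 mM minus 0.04 mM was 0.15, that of 0.12 mM minus 0.20 mM was 0.08, and that of 0.12 mM minus 0.28 mM was -0.05. By the median, the histones were thus lower at 0.20 mM than at 0.12 mM.

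**Figure D5:**
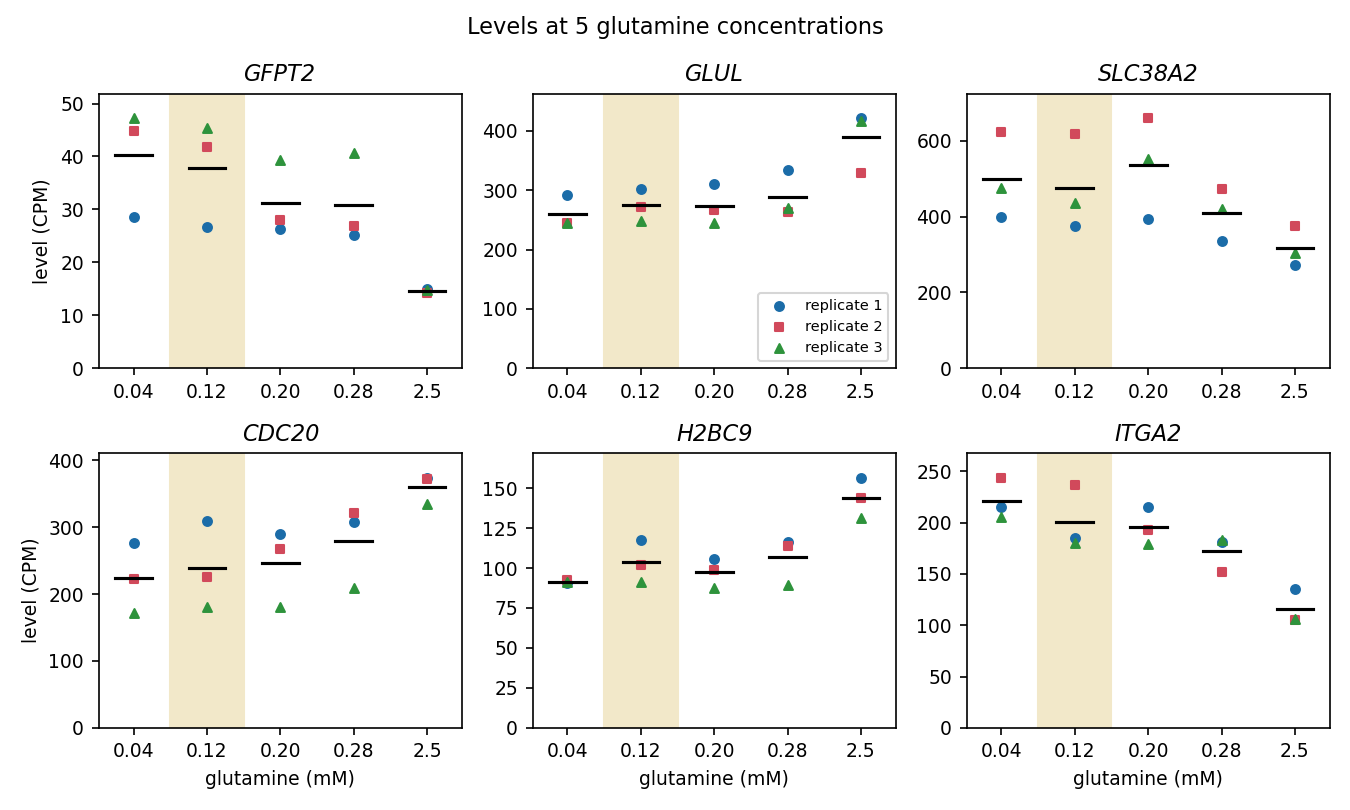
Levels (vertical, CPM, axis from 0) of 6 genes at the 5 glutamine concentrations (horizontal, mM, not to scale), with 0.12 mM shaded, a point per library and a line at each mean. For GFPT2 all limited libraries are above the controls, and for GLUL the 0.12 mM mean is 274 against 389 CPM in full medium.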

How the data were processed

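RNA of 15 MCF10A cultures was depleted of ribosomal RNA (KAPA RNA HyperPrep with RiboErase), mixed with ERCC ExFold Mix 2 and sequenced on an Illumina NextSeq, per the labels' protocols. The values are raw counts per Ensembl gene and ERCC spike-in, as deposited by the authors. The submitters' processing notes name GRCh38.p14 and hg38, while aligner, counter and strand rule were not given in the sources used here. Unstranded counts cannot separate overlapping genes, so genes with over 20% of their exons in another gene, or with close paralogs, are called uncertain.

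Genes were tested with edgeR 4.0.16 (R 4.3.3), glmQLFit and glmQLFTest, on all 15 libraries with group and replicate number as terms. filterByExpr (minimum count 10, minimum total 15) kept 13828 genes, scaling was TMM, and Benjamini-Hochberg adjusted p-values under 0.05 were called. ERCC rows served as spike-ins only. Replicate numbers come from the labels and paired the samples: deviations from the group means correlated at 0.184 to 0.489 in all 30 same-numbered pairs, and at -0.406 to 0.0549 between different numbers. DESeq2 1.42.0 and other scalings, filters and left-out libraries were alternatives. Symbols come from a reference of gene names matched by Ensembl identifier, which named 12976 of the tested genes. Positions and promoters come from RefSeq (GRCh38.p14), and exonic overlap, GC content and transcript length from GENCODE.

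Genes are named by rule: the 12 that rose and 12 that fell most among called genes of at least 5 CPM with 1 sign in 3 pairs, 28 glutamine, stress and growth genes, and up to 4 called members of each of 52 lists by adjusted p. Some genes that the rule names are not reported here. The comparison, lists and rule were chosen with earlier results of these data known. The procedure was also run on counts simulated from its own fitted means and spread, replicate block included. Such a run cannot test the block or the calls made in the real libraries.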

Additional observations from a re-analysis of the deposited data

Results flagged for a closer look

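A pair of genes differed between 0.12 mM and a neighbouring concentration in the direct edgeR tests, with Benjamini-Hochberg adjusted p. Neither has a symbol or a RefSeq position in the annotation used. ENSG00000276700 had 313, 154 and 189 CPM at 0.12 mM, 204, 112 and 97.6 CPM at 0.04 mM and 150.7, 98.8 and 129 CPM at 0.20 mM, in replicates 1 to 3. It was higher at 0.12 mM in each same-numbered pair, by 0.65 (SE 0.0937, adjusted p = 0.00114) against 0.04 mM and by 0.749 (SE 0.0918, adjusted p = 4.12e-05) against 0.20 mM. It had 387, 180.3 and 207 CPM in full medium and 329.9, 184.6 and 201 CPM at 0.28 mM, and its change of -0.23 against full medium did not pass (adjusted p = 0.117). Its levels thus had no steady order over the concentrations.

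ENSG00000289252 had 9.27, 4.47 and 7.96 CPM at 0.12 mM and 3.14, 2.49 and 1.81 CPM at 0.20 mM, without overlap. The difference was 1.52 (SE 0.253, adjusted p = 0.00805). In full medium it had 11.1, 3.76 and 6.06 CPM, and the change against full medium was 0.05 (adjusted p = 0.924).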

How the results depend on the processing

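Of the counts against full medium (1149 genes, 610 up and 539 down), the replicate block decided most: with no replicate block 0 genes passed, 0 up and 0 down. ERCC scaling gave 76 up and 1130 down. A fit of the 2 groups alone gave 272 (152 up, 120 down), counts thinned to the shallowest library 325 (176 and 149), and leaving out replicate 3 of every group 463 (282 and 181). With 1 library left out the total ran from 550 to 1438, with 306 to 742 up and 244 to 696 down. DESeq2 gave 1098, 1047 of them shared, and leaving out the libraries over 1% mitochondrial ribosomal RNA, an alternative chosen after seeing the data, 873.

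Against 0.04 mM (1 gene), 0 passed with no replicate block, without replicate 3 of every group and without the libraries over 1% mitochondrial ribosomal RNA. The 2 groups alone gave 2, no filter 23, and single libraries left out 0 to 42, the highest without 0.12 mM replicate 2. Against 0.20 mM (2 genes) the same settings gave 0, 1, 1, 10 and 12, and 1 to 26, again highest without 0.12 mM replicate 2. The GC and length offset gave 0 in both, but neither called gene has a GC value, so they were not in that fit and it does not test them. Against 0.28 mM (0 genes), ERCC scaling gave 2, no filter 6 and the 2 groups alone 3. The causes were not tested.

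Of 183 named genes none reversed, and 162 of them had the call in the main fit. With no replicate block all 162 lost the call, with ERCC scaling 55, and with single libraries left out 16 to 50. Thinned to the shallowest library, 91 lost it.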

Other observations

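Other lists held few calls, beside shares of 4.41% up and 3.9% down among all tested genes. Among cytosolic chaperones 4 of 29 fell and 1 rose, with a median of -0.12 (-0.31 with ERCC scaling). HSPB1, a small heat shock protein, had 306, 179 and 225 CPM in full medium and 224.6, 136 and 114 CPM at 0.12 mM, was lower in each pair, and fell by 0.60 (SE 0.0871, adjusted p = 6.66e-05 in edgeR). The 4 that fell became 2, 1 and 1 without 0.12 mM replicate 1, 0.12 mM replicate 3 or full medium replicate 3, and 13 without full medium replicate 1. Of 27 genes of the endoplasmic reticulum response 5 fell and 0 rose, but 0 fell without 0.12 mM replicate 1, 2 without 0.12 mM replicate 2 or 3, and 1 without full medium replicate 3. Of 39 aminoacyl-tRNA synthetases 3 fell and 0 rose, and FARSA (-0.38, SE 0.0773), EARS2 (-0.37, SE 0.0790) and VARS1 (-0.34, SE 0.0676) each passed with every 1 of the 6 libraries left out.

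Of 29 hypoxia targets 5 rose (17.2%, against 4.41% of all tested genes) and 0 fell. The list median was 0.12 and became -0.06 with ERCC scaling. ANGPTL4, an inhibitor of lipoprotein lipase, rose by 0.49 (SE 0.0739, adjusted p = 9.81e-05 in edgeR). The 5 became 3 without 0.12 mM replicate 2 or 3 or full medium replicate 3, and 2 without full medium replicate 2. Of 51 lysosome and autophagy genes 3 rose (5.88%) and 1 fell (1.96%), against 4.41% and 3.9% of all tested genes. ULK2, a kinase that starts autophagy, was among the 3 and rose by 0.65 (SE 0.117). The 3 became 1 without 0.12 mM replicate 2 or 3, and 7 without full medium replicate 1.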
